A study of Mus musculus with 6 samples.

Results

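The respiratory chain subunits were taken from the count table by gene symbol. The patterns were Nduf followed by a, b, c, s or v and a digit, *Sdha* to *Sdhd*, symbols opening with Uqcr, *Cyc1*, Cox followed by a digit from 4 to 8, and Atp5 followed by a letter from a to o, without pseudogene names ending in -ps. Of 23159 genes in the table, 84 matched. *Cox4nb* matched by name only. It is the older symbol of *Emc8*, a gene of an endoplasmic reticulum membrane complex that lies head to head with *Cox4i1*, and it was left out of the complexes. The 83 remaining genes encode 37 subunits of complex I, 4 of complex II, 9 of complex III, 18 of complex IV and 15 of complex V, all made in the nucleus. Those of complex V carry their older Atp5 symbols here. *Ndufa4* and *Ndufa4l2* were counted in complex I by name, although the NDUFA4 protein is known to sit in complex IV, and *Cox7a2l* encodes a factor that joins complexes III and IV.

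RNA was sequenced from label-retaining chondrocytes (LRCs), taken by the paper as slowly dividing growth plate cells, and from non-LRCs of the same mice. Both groups came from mice homozygous for 4 alleles, Col2a1-tTA at Peli2, TRE-H2B-GFP at Col1a1, the Col2a1-creER transgene and tdTomato at R26R. All mice were taken at postnatal day (P) 49, after doxycycline from P21 to P49 and tamoxifen at P46 and P47. Doxycycline stops synthesis of the nuclear label H2B-GFP, so that dividing cells dilute it. At this age, the paper saw less uptake of EdU, a label of DNA synthesis, in LRCs only as a trend without significance. The difference was significant after shorter times on doxycycline. LRCs were H2B-GFP(high) and non-LRCs H2B-GFP(mid-low) cells, both tdTomato+ per the labels and CD45-negative per the methods. The tTA and creER are driven by *Col2a1*, so both groups were limited to cells that had used this promoter. Each of 3 independent experiments pooled littermates and gave 1 LRC library from about 10000 cells and 1 non-LRC library from about 50000 cells, 6 libraries in all. The question asked of these genes was whether the complexes, and the paralogous isoforms within them, differed between LRCs and non-LRCs of the same experiment.

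Complexes I to IV pass electrons from NADH and succinate to oxygen through ubiquinone and cytochrome c, and complexes I, III and IV pump protons across the inner mitochondrial membrane while they do so. Complex V, the ATP synthase, lets the protons flow back through a ring of c subunits and makes ATP in its F1 head. A few subunits exist as paralogs with different tissue ranges or different responses to oxygen, among them COX4 and the NDUFA4 protein. Growth plate cartilage has no blood vessels, and chondrocytes are known for relying largely on glycolysis.

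The stretches before the start sites of 4 subunit genes are shown first. *Atp5g1* and *Atp5c1* are shown because their mRNAs passed the test below and a RefSeq promoter window was at hand for them, and *Atp5l* and *Cox6a1* because their windows were the only ones with a match to both NRF1 and GABP. NRF1 (nuclear respiratory factor 1) and GABP are transcription factors known to control many respiratory chain genes. The windows are from RefSeq on GRCm38.p6. Each is read 5′ to 3′ on the gene's strand and runs up to the first annotated exon, without any base of an exon on either strand. Capitals mark matches, on either strand, to GCGCATGC (NRF1), CCGGAAG (GABP and other ETS factors), TCAAGGTCA (estrogen-related receptors), ATGGCGGC (YY1), GGGCGG (SP1), ACGTG (the core used by HIF) and TGGGAA (RBPJ).
Atp5g1: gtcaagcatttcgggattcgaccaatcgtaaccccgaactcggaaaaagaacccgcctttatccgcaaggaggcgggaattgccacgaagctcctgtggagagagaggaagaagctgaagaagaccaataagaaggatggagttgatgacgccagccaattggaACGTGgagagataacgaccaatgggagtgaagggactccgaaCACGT
Atp5c1: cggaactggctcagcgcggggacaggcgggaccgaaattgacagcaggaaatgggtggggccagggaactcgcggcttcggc
Atp5l: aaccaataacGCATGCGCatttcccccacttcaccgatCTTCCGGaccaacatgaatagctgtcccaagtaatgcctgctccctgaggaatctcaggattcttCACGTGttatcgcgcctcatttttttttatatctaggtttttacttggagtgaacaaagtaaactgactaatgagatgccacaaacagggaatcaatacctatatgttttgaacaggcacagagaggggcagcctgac
Cox6a1: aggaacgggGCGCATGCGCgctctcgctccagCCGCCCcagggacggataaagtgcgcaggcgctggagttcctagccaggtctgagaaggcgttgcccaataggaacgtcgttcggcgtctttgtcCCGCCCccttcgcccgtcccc
The *Atp5g1* stretch (chromosome 11, 96075671 to 96075881, minus strand) held an ACGTG and, at its end, a CACGT, whose next base completes the palindrome CACGTG. The *Atp5c1* stretch (chromosome 2, 10080511 to 10080592, minus strand) was short because exons of a neighbouring gene begin before it, and it held none of the letters searched for. In *Atp5l* (chromosome 9, 44920752 to 44920992, minus strand) the NRF1 match lay 240 bases and the GABP match 212 bases before the start. In *Cox6a1* (chromosome 5, 115348982 to 115349129, minus strand) 2 overlapping NRF1 matches opened 162 and 160 bases before the start, and its GABP match, 16 bases before the start, lay outside the stretch shown. Windows were found for 66 of the 83 subunits, 71 windows in all, and were searched over the 250 bases before the start. The NRF1 letters were in 11.3% of the subunit windows, against 4.04% of the 13641 windows of all genes tested and 2.26% of all 32851 windows. The GABP letters were in 16.9%, 12.4% and 6.91% of them. SP1 letters were in 32.4% of subunit windows and 56.4% of those of tested genes. ACGTG was in 19.7% and 21.1%, and TGGGAA in 19.7% and 20.7%. The letters for YY1 were in 2.82% and 1.80%, and those for estrogen-related receptors in 1.41% and 0.242%, which for the subunits was 1 window, that of *Atp5g3*. Such matches describe the letters of the windows and show no binding.

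Levels are given as CPM (counts per 1000000 counts after TMM normalization), and log2 fold changes are those of LRCs against non-LRCs from the paired edgeR fit, so that negative values are lower in LRCs. Total counts lay between 18943789 and 129559872 per library. In experiment 2 the LRC library was smallest and stood apart, with 1731 of the 13728 genes tested at 0 against 4 to 365 in the other libraries. There, 3 counts were worth 0.143 CPM, against 0.0257 to 0.0785 in the others, and such limits cover counting error only. *Col2a1*, the collagen gene that defines chondrocytes, took 7.0% to 17.4% of all counts. Of the 7 listed chondrocyte markers, 6 were lower in LRCs (median -0.43, where 56.0% of all genes tested were lower), and *Sox9* was higher (0.46). In edgeR 0 of them passed the adjusted threshold, while DESeq2 and limma-voom called *Matn1* (-0.95) and *Hapln1* (-0.74) lower. The 4 listed resting zone markers, *Pthlh*, *Sfrp5*, *Gas1* and *Wif1*, were all higher in LRCs (median log2 fold change 1.66, 3 called by edgeR). The paper had reported all of them as higher in LRCs from these same libraries, and named *Gas1* and *Wif1* as new markers there. Their direction is therefore no separate check of the LRC gate. The 5 hypertrophic markers had a median of -2.35. Of these, edgeR called *Mef2c* lower, and DESeq2 also *Col10a1* and *Ihh*, while *Spp1* was level (-0.0035) and *Mmp13* higher in experiment 1 only. Since these were bulk samples, fewer cells of a kind and less RNA per cell cannot be told apart, and what the 2 gates hold besides slow and faster cycling was not tested.

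The mRNAs of the respiratory chain were lower in LRCs as a group, in every complex and in all 3 experiments, and no subunit was called higher. From these same libraries, the paper had reported enrichment of the KEGG term for oxidative phosphorylation, with its differentially expressed genes all higher in non-LRCs. The direction given here is therefore no separate observation. Of the 83 subunits, 78 passed the filter on low counts, 36 of 37 in complex I, all of complexes II, III and V, and 14 of 18 in complex IV. Of these 78, 75 had a negative log2 fold change, with a median of -0.83 against -0.10 over all genes tested. Lower in all 3 experiments were 66 (84.6%), against 26.0% of all genes tested, and higher in all 3 were 0, against 20.4% of all genes. At an unadjusted p below 0.05 in edgeR, 60 were lower and 0 higher, where 9.53% of all genes were lower and 1221 of 13728 higher. After adjustment over all 13728 genes, 4 subunits were lower at an edgeR adjusted p below 0.05 (background 0.379%) and 0 were higher (background 0.903%). The 4 were *Cox4i2*, *Uqcrq*, *Atp5g1* and *Atp5c1*, and 31 subunits had an edgeR adjusted p below 0.1. The 3 LRC libraries all lay below the 3 non-LRC libraries for 18 subunits, against 10.3% of all genes tested.

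How many subunits passed depended on the tool. DESeq2 with the same pairing called 56 of the 80 subunits to which it gave an adjusted p, all lower, where it called 6.15% of all genes lower. limma-voom with the same pairing called 51, all lower, where it called 1361 of all 13728 genes tested, lower and higher together. Without the pairing, edgeR called 0 subunits and 1 gene of all. Leaving out experiment 2 raised the edgeR count to 32, and leaving out experiment 1 reduced it to 1, *Cox4i2*. The median over the subunits was -0.69 without experiment 1, -0.86 without experiment 2 and -0.87 without experiment 3.

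**Figure D1:**
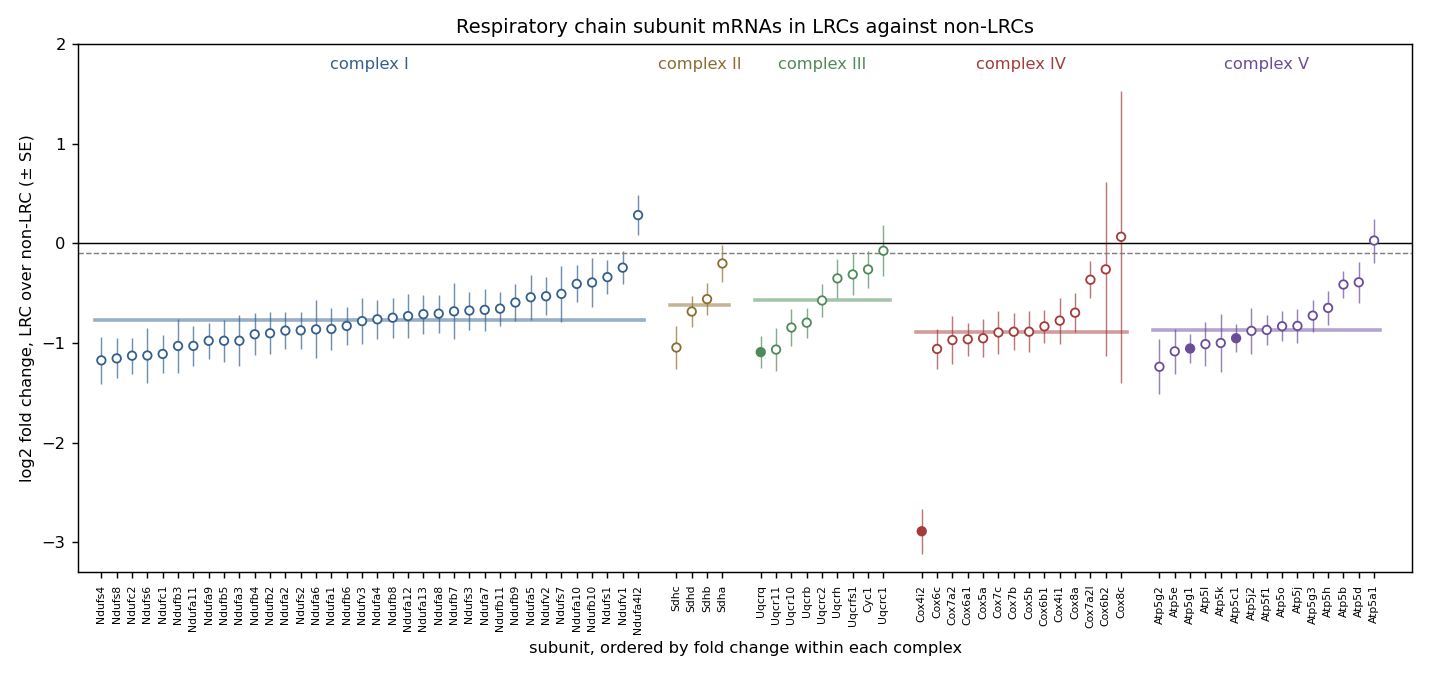
Log2 fold change of each of the 78 tested subunits, LRCs against non-LRCs, with its SE from the paired edgeR fit (n = 3 pairs), ordered within complexes I to V. Filled points have an adjusted p below 0.05, coloured lines are the medians of the complexes (-0.77, -0.62, -0.57, -0.89 and -0.87), the dashed line is the median of all genes (-0.10), and all but 3 points lie below 0.

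Summed over all 83 subunits, the LRC libraries of experiments 1, 2 and 3 held 3071, 5598 and 3842 CPM and the non-LRC libraries 5066, 7812 and 5823 CPM. The libraries of experiment 2 were the highest of each group, so that the ranges of the groups overlapped, but in each experiment the LRC library was lower. The ratios of LRCs to non-LRCs were 0.606, 0.717 and 0.660. The median change over the 78 subunits was -1.03, -0.73 and -0.67 (log2) in the 3 experiments, where that of all genes was -0.01, -0.16 and -0.01. In experiments 1 and 3, 76 of the 78 subunits were lower, and in experiment 2, 68 were. Of the 12 subunits that did not keep 1 direction, 10 were higher in experiment 2, among them *Uqcrc1*, *Cyc1*, *Uqcrfs1* and *Atp5a1*.

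**Figure D2:**
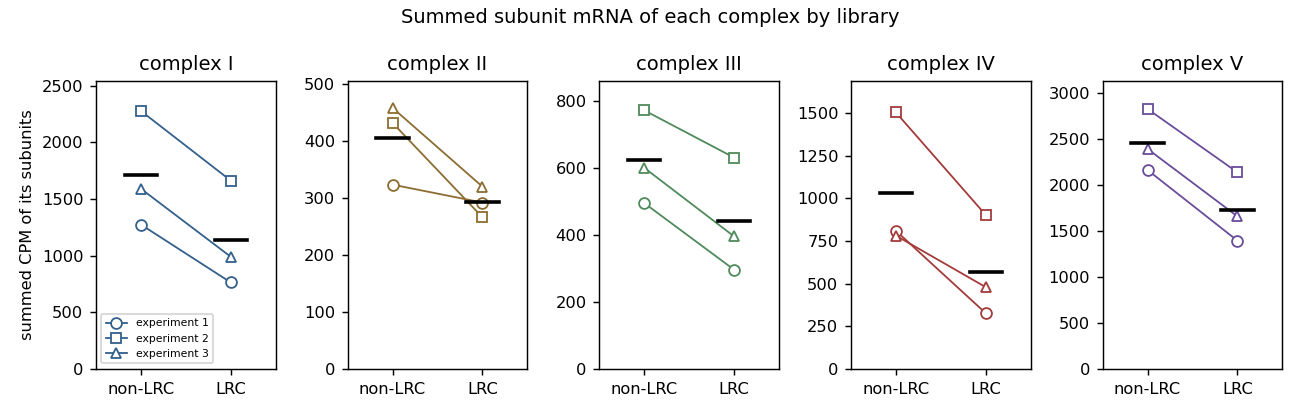
Summed CPM of the subunits of complexes I to V in each library, with lines joining the non-LRC and LRC libraries of an experiment (circle, square and triangle for experiments 1, 2 and 3) and black bars at the group means. Each line falls, with LRC to non-LRC ratios from 0.403 (complex IV, experiment 1) to 0.903 (complex II, experiment 1).

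Complex I is the largest of the chain, with a core that carries the flavin and iron-sulfur clusters and many accessory subunits around it. Of its 36 tested subunits, 35 had negative fold changes, 33 were lower in all 3 experiments and 0 passed the edgeR adjusted threshold. At an unadjusted p below 0.05 edgeR had 28 of them lower, and after adjustment DESeq2 called 24 and limma-voom 22. Its sums were 763, 1662 and 989.8 CPM in LRCs and 1275, 2278 and 1591 CPM in non-LRCs. The 7 core subunits had a median of -0.53 and the 27 accessory subunits one of -0.86, and all of both had negative values. No test was made of the difference between these classes. *Ndufs4*, an accessory subunit whose loss in mice is a known model of complex I disease, had the lowest value in the complex. It was at 8.84, 22.8 and 14.5 CPM in LRCs and 26.5, 47.7 and 26.7 CPM in non-LRCs, 2 groups that did not overlap (log2 fold change -1.17 ± 0.23 SE, edgeR adjusted p = 0.0804). *Ndufs8*, a core subunit that carries iron-sulfur clusters, was at 12.1, 19.5 and 17.3 CPM in LRCs and 26.1, 38.9 and 44.2 CPM in non-LRCs. The groups again did not overlap (-1.16 ± 0.20, edgeR adjusted p = 0.0612). *Ndufc2*, an accessory membrane subunit, was at 17.8, 31.6 and 23.2 CPM in LRCs and 40.7, 76.8 and 43.6 CPM in non-LRCs. It came closest to the threshold in the complex (-1.13 ± 0.18, edgeR adjusted p = 0.0540) and was called under 7 of 13 alternative settings. Within the core, *Ndufv1*, which binds NADH, was at 30.0, 38.1 and 39.2 CPM in LRCs and 36.7, 43.9 and 46.3 CPM in non-LRCs. Its ranges overlapped and its difference was small (-0.24 ± 0.17, edgeR adjusted p = 0.495).

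*Ndufs5* stood out by its level, with 4, 0 and 0 counts in LRCs and 2, 0 and 0 in non-LRCs, and was not tested. Of its 50-base windows, 41.2% also occur in BC002163, a processed pseudogene that had 13, 0 and 4 counts in LRCs and 17, 0 and 3 in non-LRCs. The part of these windows in the counts was not tested, and most of the windows of *Ndufs5* were not shared.

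Complex II, succinate dehydrogenase, links the chain to the citric acid cycle. All 4 subunits had negative values, and 0 passed the edgeR adjusted threshold, with 3 lower at an unadjusted p below 0.05, while DESeq2 called 3 and limma-voom 2. *Sdha* was closest to no difference. The flavoprotein of the catalytic head, it was at 174, 106 and 163 CPM in LRCs and 155, 161 and 183 CPM in non-LRCs, higher in LRCs in experiment 1 and lower in the others (-0.20 ± 0.18, edgeR adjusted p = 0.613). *Sdhb*, the iron-sulfur subunit, was at 37.4, 63.9 and 54.4 CPM in LRCs and 51.2, 86.3 and 94.3 CPM in non-LRCs, lower in each experiment although the ranges overlapped (-0.56 ± 0.16, edgeR adjusted p = 0.149). For the 2 subunits that anchor the head in the membrane and bind ubiquinone, the groups did not overlap. *Sdhc* was at 15.5, 17.4 and 20.5 CPM in LRCs and 27.9, 45.4 and 38.6 CPM in non-LRCs (-1.05 ± 0.21, edgeR adjusted p = 0.0808). *Sdhd* was at 65.6, 79.4 and 82.1 CPM in LRCs and 89.4, 139 and 143 CPM in non-LRCs (-0.69 ± 0.15, edgeR adjusted p = 0.0934).

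In complex III, which passes electrons from ubiquinol to cytochrome c, the 4 core subunits had a median of -0.29 and the 5 small accessory subunits one of -0.85. *Uqcrq*, an accessory subunit beside cytochrome b, was the 1 member that edgeR called lower, where DESeq2 called 5 and limma-voom 4. It was at 22.7, 52.2 and 27.5 CPM in LRCs and 53.4, 109 and 54.2 CPM in non-LRCs, and the highest LRC library, that of experiment 2, lay just below the lowest non-LRC library. The log2 fold change was -1.09 ± 0.16 (edgeR adjusted p = 0.0475), and the gene shared none of its 50-base windows with another gene. *Uqcr11* (-1.07, edgeR adjusted p = 0.0808) and *Uqcr10* (-0.85, edgeR adjusted p = 0.0927), other small subunits, were lower in all 3 experiments. At the other end, *Uqcrc1*, a large core protein on the matrix side, was at 76.4, 96.8 and 92.8 CPM in LRCs and 91.2, 62.0 and 140 CPM in non-LRCs. It was lower in LRCs in experiments 1 and 3 and higher in experiment 2 (-0.07 ± 0.26, edgeR adjusted p = 0.903), and its sign turned when experiment 1 or 3 was left out. *Cyc1*, cytochrome c1, was at 37.7, 76.7 and 55.3 CPM in LRCs and 51.8, 70.6 and 75.2 CPM in non-LRCs, with the same order of experiments (-0.26 ± 0.18, edgeR adjusted p = 0.504).

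Complex IV, cytochrome c oxidase, held the largest difference of all subunits. *Cox4i2* encodes the isoform of subunit 4 known from lung and from cells at low oxygen, and *Cox4i1* the common one. *Cox4i2* (chromosome 2, 152754173 to 152765037, plus strand of GRCm38) was at 4.11, 7.55 and 9.29 CPM in LRCs and 38.6, 52.7 and 57.7 CPM in non-LRCs. The groups lay far apart, and the lowest non-LRC library was 4.15 times as high as the highest LRC library. The log2 fold change was -2.89 ± 0.23 (edgeR adjusted p = 0.0151), with -3.22, -2.80 and -2.63 in experiments 1, 2 and 3, and the gene was called under 12 of 13 alternative settings, the fit without pairing being the exception (adjusted p = 0.0616). *Cox4i1* (chromosome 8, 120668222 to 120674207, plus strand) was at 56.0, 166 and 90.3 CPM in LRCs and 143, 197 and 149 CPM in non-LRCs. It was lower in each experiment, but the LRC library of experiment 2 lay within the range of the non-LRC libraries (-0.78 ± 0.23, edgeR adjusted p = 0.158). Of the windows of *Cox4i1*, 12.2% overlap its neighbour *Emc8*, listed as *Cox4nb*, whose own value was -0.21.

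**Figure D3:**
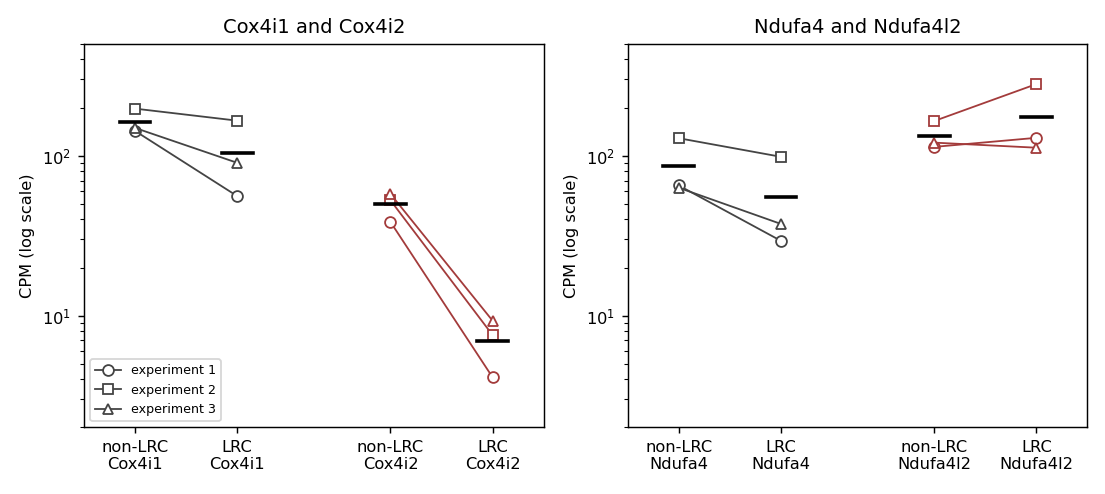
CPM of *Cox4i1* and *Cox4i2* (left) and of *Ndufa4* and *Ndufa4l2* (right) in each library on a log axis, with lines joining the libraries of an experiment and black bars at group means. *Cox4i2* falls from 38.6 to 57.7 CPM in non-LRCs to 4.11 to 9.29 in LRCs, while *Ndufa4l2* is at 112 to 281 CPM in LRCs and 114 to 165 in non-LRCs.

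The other common subunits of complex IV lay close together. The 9 from *Cox6c* (-1.06) to *Cox8a* (-0.70), with *Cox7a2* (-0.97), *Cox6a1* (-0.96), *Cox5a*, *Cox7c*, *Cox7b* (-0.89), *Cox5b* and *Cox6b1* (-0.83) between them, had lower values in LRCs in all 3 experiments. In edgeR 0 of them passed the adjusted threshold, while DESeq2 and limma-voom each called all 9 lower. *Cox6c*, a small membrane subunit, was at 25.9, 71.2 and 38.1 CPM in LRCs and 71.3, 148 and 60.4 CPM in non-LRCs. Its LRC library of experiment 2 lay between the non-LRC libraries. *Cox7a2l* was at 23.8, 41.2 and 24.6 CPM in LRCs and 35.8, 47.5 and 30.3 CPM in non-LRCs (-0.37 ± 0.19, edgeR adjusted p = 0.366). The isoforms known from other tissues were near the floor. *Cox6b2*, a testis isoform, was at 0.884 to 1.04 CPM in LRCs and 0.805 to 1.78 in non-LRCs, and *Cox8c*, another testis isoform, at 0.120, 7.22 and 1.0 CPM in LRCs and 0.910, 1.20 and 0.845 in non-LRCs. The 7.22 CPM of *Cox8c* came from the smallest library, and without experiment 2 the sign of both fold changes turned. *Cox6a2*, the heart and muscle isoform, had 6, 0 and 0 counts in LRCs and 49, 40 and 5 in non-LRCs. *Cox7a1*, also of heart and muscle, had 11, 43 and 10 counts in LRCs and 19, 3 and 9 in non-LRCs. *Cox7b2* had 3, 0 and 0 counts against 8, 22 and 1, and *Cox8b* 0, 0 and 0 against 0, 0 and 1. These 4 genes were not tested, and they hold nearly none of the oxidase mRNA in either group.

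Complex V held 2 of the 4 subunits that edgeR called, where DESeq2 called 13 of its 15 and limma-voom 12. *Atp5g1* encodes 1 of 3 forms of subunit c, whose ring turns as protons pass. It was at 39.1, 84.1 and 51.5 CPM in LRCs and 90.4, 164 and 102 CPM in non-LRCs, and the groups did not overlap (-1.06 ± 0.15, edgeR adjusted p = 0.0409). Of its 50-base windows, 66.0% recur in other genes, most of them in a pseudogene, so reads of it could be lost or split. *Atp5c1* encodes subunit gamma, the shaft that turns within the F1 head. It was at 67.2, 107 and 94.0 CPM in LRCs and 137, 215 and 166 CPM in non-LRCs, again without overlap (-0.95 ± 0.14, edgeR adjusted p = 0.0454), and 6.0% of its windows were shared. Once counts were corrected for transcript length and GC content, *Atp5g1* was at -0.82 (edgeR adjusted p = 0.0772), *Atp5c1* at -0.68 (edgeR adjusted p = 0.0968) and *Uqcrq* at -0.94 (edgeR adjusted p = 0.0573). These genes did not pass the threshold after the correction. *Cox4i2* was at -2.69 and kept its call (edgeR adjusted p = 0.0127). *Atp5g2*, another form of subunit c, had the lowest value in the complex, at 20.6, 38.7 and 27.0 CPM in LRCs and 77.6, 88.6 and 41.1 in non-LRCs. It did not pass in edgeR (-1.24 ± 0.28, edgeR adjusted p = 0.0934), and 87.4% of its windows recur elsewhere. *Atp5g3*, the form with no shared windows, was at 59.4, 118 and 82.6 CPM in LRCs and 114, 206 and 112 in non-LRCs (-0.73 ± 0.16, edgeR adjusted p = 0.0922).

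The catalytic beta subunit gene *Atp5b* was the most abundant subunit mRNA per length in both groups. It was at 516, 701 and 613 CPM in LRCs and 737, 863 and 824 CPM in non-LRCs, a small difference without overlap (-0.41 ± 0.14, edgeR adjusted p = 0.194). *Atp5e*, the small epsilon subunit of the shaft, was at 12.8, 54.4 and 19.6 CPM in LRCs and 38.5, 97.0 and 34.9 CPM in non-LRCs (-1.08 ± 0.22, edgeR adjusted p = 0.0814). *Atp5a1*, the alpha subunit that forms the F1 head with beta, was at 416, 533 and 395 CPM in LRCs and 461, 346 and 517 in non-LRCs. Its groups overlapped, with the LRC library higher in experiment 2 and lower in experiments 1 and 3 (0.03 ± 0.22, edgeR adjusted p = 0.960), and without experiment 2 its value was -0.27. *Atp5d*, subunit delta, was also near the upper end (-0.39 ± 0.20, edgeR adjusted p = 0.369). The 4 subunits of the peripheral stalk lay between -0.87 and -0.65 and the 3 accessory membrane subunits between -1.01 and -0.88. Among the latter, 84.8% of the windows of *Atp5l* were shared.

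Within 4 of the 5 complexes, the subunits nearest to 0 in the uncorrected fit were catalytic or core ones. For complexes I and V they were *Ndufv1* and *Atp5a1*, for II *Sdha* and for III *Uqcrc1*, *Ndufa4l2* aside. In complex IV they were the testis isoforms *Cox8c* and *Cox6b2*. The fold changes also moved with transcript length. Over the 78 subunits, Pearson's r between log2 fold change and log2 transcript length was 0.31, against 0.12 over all genes with a length. With GC content it was 0.02 and 0.10. These are correlations across genes of the same 6 libraries, and genes are not independent replicates. The median transcript of a subunit was 760.5 bases, that of all genes 2890. The 437 other tested genes no longer than the subunit median had a median log2 fold change of -0.45, and 72.8% of them were lower in LRCs. Correcting the counts for GC content and length moved the subunit median from -0.83 to -0.51 and left 73 of 78 subunits negative. After this correction, the subunit nearest to 0 in complex I was the accessory *Ndufb10* (-0.16, with *Ndufv1* at -0.26). In complex III it was the accessory *Uqcrh* (0.025, with *Uqcrc1* at -0.10). In complexes II and V it was still *Sdha* (-0.18) and *Atp5a1* (0.05). The part of length in the result was not tested further.

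**Figure D4:**
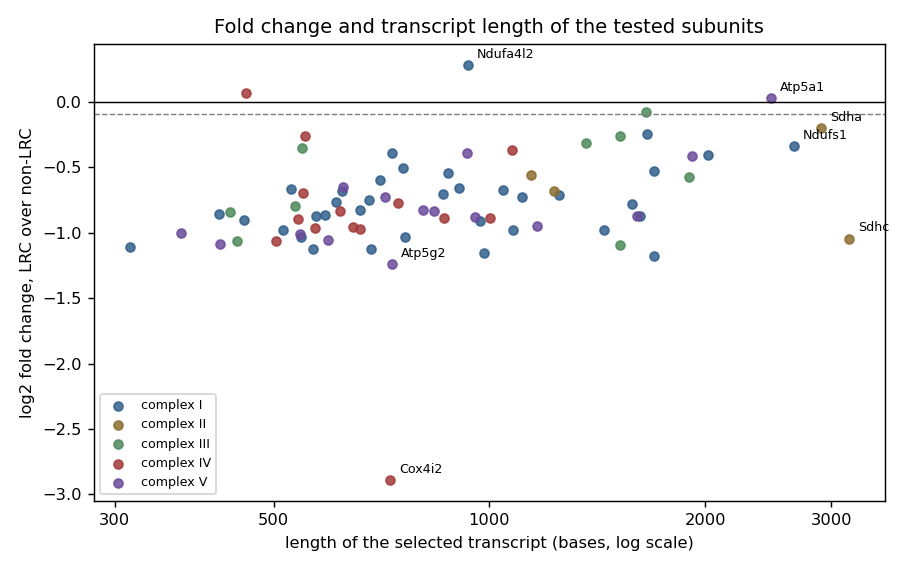
Log2 fold change of the 78 tested subunits, LRCs against non-LRCs, plotted over the length of the selected transcript on a log axis and coloured by complex. The dashed line is the median of all genes (-0.10), and the longest transcripts, apart from *Sdhc*, tend to lie nearer to 0 (Pearson's r of 0.31 over the 78 genes).

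Between paralogs, the ratio of isoforms was taken within each library, which removes differences in depth but not effects of transcript length or GC content. With 3 pairs, an exact two-sided sign-flip permutation test cannot give a p below 0.25, and 11 ratios were computed, so no ratio could pass a threshold (smallest adjusted exact permutation p = 0.344). The ratio of *Cox4i2* to *Cox4i1* was lower in LRCs in 3 of 3 experiments, by -1.87, -2.55 and -1.91 on the log2 scale (exact permutation p = 0.25). Per kilobase of transcript, *Cox4i2* made up 7.0%, 4.46% and 9.53% of the COX4 mRNA in LRCs and 21.6%, 21.5% and 28.4% in non-LRCs. The highest of the LRC shares was below the lowest of the non-LRC shares.

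The ratio of *Ndufa4l2* to *Ndufa4* went the other way in 3 of 3 experiments, by 1.34, 1.15 and 0.65 (exact permutation p = 0.25). *Ndufa4l2* is known as a gene induced at low oxygen that dampens the chain. It was at 129, 281 and 112 CPM in LRCs and 114, 165 and 121 in non-LRCs (0.28 ± 0.20, edgeR adjusted p = 0.505). *Ndufa4* was at 29.4, 98.5 and 37.5 CPM in LRCs and 65.2, 129 and 63.1 in non-LRCs (-0.76 ± 0.19, edgeR adjusted p = 0.119). Neither gene passed in edgeR, while DESeq2 and limma-voom called *Ndufa4* lower, and the ranges of both genes overlapped. With counts corrected for GC content and length, *Ndufa4* was at only -0.24 (edgeR adjusted p = 0.461) and *Ndufa4l2* at 0.38 (edgeR adjusted p = 0.258). The ratios were not corrected in this way. Per kilobase, *Ndufa4l2* made up 74.2%, 65.0% and 66.2% of the pair in LRCs and 53.2%, 45.5% and 55.6% in non-LRCs, and these ranges did not overlap. In the order of mean levels per kilobase over the 83 subunits, *Ndufa4l2* was at rank 2 in LRCs (186 ± 99.2 SD) and rank 16 in non-LRCs (142 ± 29.7). *Cox4i2* was at rank 73 in LRCs (9.60 ± 3.62) and rank 39 in non-LRCs (68.3 ± 13.7). The spread of *Ndufa4l2* in LRCs covers the means of its neighbours *Atp5a1* (181 ± 30.0) and *Cox6a1* (151 ± 69.5).

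Of the remaining ratios, *Cox7a2l* to *Cox7a2* was higher in LRCs in 3 of 3 experiments, by a mean of 0.61 ± 0.36 (SD, exact permutation p = 0.25). *Atp5g2* to *Atp5g3* (-0.51 ± 0.42) and *Atp5g1* to *Atp5g3* (-0.33 ± 0.20) were lower in 3 of 3. *Atp5g1* to *Atp5g2* (0.18 ± 0.54) had no common direction. Ratios of tissue-restricted isoforms rested on few counts. *Cox6a2* to *Cox6a1* (-2.98 ± 1.47), *Cox7b2* to *Cox7b* (-1.60 ± 1.80) and *Cox7a1* to *Cox7a2* (2.28 ± 2.47) kept their signs in 3 of 3 experiments, *Cox6b2* to *Cox6b1* (0.57 ± 0.64) and *Cox8c* to *Cox8a* (0.67 ± 2.44) in 2 of 3. In both groups these isoforms made up at most 9.55% of their pair, the highest being *Cox8c* in the LRC library of experiment 2.

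The complexes kept similar shares of the subunit mRNA. Per kilobase, complex I took 31.8% ± 1.91 (SD, n = 3) in LRCs and 31.05% ± 1.49 in non-LRCs, and complex V 32.8% ± 3.46 and 31.9% ± 2.16. Complex III took 11.5% ± 0.594 and 10.8% ± 0.230, and complex II 4.20% ± 1.42 and 3.56% ± 0.940. Complex IV was lower in LRCs in all 3 experiments, with 17.6%, 22.4% and 19.3% against 23.1%, 24.98% and 19.99% in non-LRCs, although these ranges overlapped. Without *Cox4i2* the order was kept in experiments 1 and 2 (17.4% and 22.3% against 22.4% and 24.4%) and turned slightly in experiment 3 (19.1% against 18.9%).

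Genes around the chain were listed by function, and their medians were not tested against those of the subunits. The tested assembly factors had longer transcripts than the subunits (medians of 1749 and 760.5 bases). The part of length in the differences between lists was not tested. The 6 subunits and regulators outside the symbol patterns had a median of -0.81, with 5 lower and 0 passing the adjusted threshold in edgeR. At an unadjusted p below 0.05 there were 4 lower, and DESeq2 called 3 and limma-voom 4. The lowest were *Usmg5* (-0.99) and *2010107E04Rik* (-0.98), both small membrane proteins of the ATP synthase, and *Atp5sl*, an assembly factor for complex I despite its name, was the 1 with a positive value (0.30). Among 49 tested assembly factors of the 5 complexes, 36 were lower and 13 higher, with a median of -0.45, where 56.0% of all genes tested were lower. Lower in all 3 experiments were 24 (49.0%), against 26.0% of all genes. Higher in all 3 were 4 (*Foxred1*, *Tmem186*, *Cox10* and *Lrpprc*, named after their values were seen), against 20.4% of all genes. In edgeR 0 passed the adjusted threshold. At an unadjusted p below 0.05 in edgeR, 11 were lower, against 9.53% of all genes, and 0 higher. DESeq2 and limma-voom each called the same 4 lower, *2900010M23Rik*, *2310016M24Rik*, *Cox17* and *Cox18*, where DESeq2 called 6.15% of all genes lower. Those nearest to the edgeR threshold were *2900010M23Rik* (*Uqcc2*, complex III, -1.21, edgeR adjusted p = 0.0540) and *Cox17* (-1.24, edgeR adjusted p = 0.0681), a copper chaperone of complex IV. The medians by complex were -0.52, -0.68, -0.68, -0.53 and -0.23 for I to V. The largest values in each direction were *Nubpl* (-1.79), *Ndufaf3* (-0.99), *Foxred1* (0.26) and *Ndufaf1* (0.23) for complex I and *Bcs1l* (-1.94), *Lyrm7* (-1.34) and *Ttc19* (0.03) for complex III. For complex IV they were *Taco1* (-3.67) and *Chchd8* (-2.41), both under 3 CPM on average, *Cox10* (0.49) and *Sco1* (0.34). For complex II they were *Acn9* (*Sdhaf3*, -1.91), *1110058L19Rik* (*Sdhaf4*, -0.91) and *Sdhaf1* (0.35), and for complex V *Tmem70* (-0.50), *Atpaf1* (-0.45) and *Oxa1l* (0.17). Several of these rest on the small LRC library of experiment 2, where *Nubpl* had 1 count, *Acn9* 1, *Bcs1l* 7, and *Chchd8*, *Lyrm7* and *Taco1* 0. Without experiment 2, *Nubpl* was at -0.42, *Acn9* at -1.29, *Bcs1l* at -0.98, *Chchd8* at -1.08, *Taco1* at -2.37 and *Lyrm7* at 0.07, and *Atpaf1* (0.11), *Sdhaf1* (-0.34) and *Oxa1l* (-0.24) changed sign. The median of the 49 was then -0.38.

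Of 17 electron carriers, ubiquinone synthesis genes and nucleotide and metabolite carriers, 14 were lower (median -0.45), where 56.0% of all genes tested were lower. In edgeR 0 passed the adjusted threshold. At an unadjusted edgeR p below 0.05, 8 were lower, against 9.53% of all genes, and 1 was higher, against 1221 of all 13728 genes. DESeq2 called 5 lower, where it called 6.15% of all genes lower, and 1 higher. For limma-voom it was 4 lower and 1 higher, and the higher gene was *Ucp2* in both. *Coq9*, of ubiquinone synthesis (-1.03, edgeR adjusted p = 0.0701), and *Vdac1*, the outer membrane channel (-0.86, edgeR adjusted p = 0.0612), were lowest. *Cycs*, cytochrome c itself, averaged 139 CPM in LRCs and 221 in non-LRCs (-0.67, edgeR adjusted p = 0.0758). *Ucp2*, an uncoupling protein homolog, had the highest value, 96.8 against 42.2 CPM (1.01, edgeR adjusted p = 0.162, and 0.59 without experiment 2), followed by *Coq5* (0.28).

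The 14 listed regulators of mitochondrial biogenesis were not lower as a group, with 9 higher and 5 lower, a median of 0.08, 0 lower in all 3 experiments and 5 higher in all 3 (*Polrmt*, *Tfb1m*, *Tfb2m*, *Polg* and *Pprc1*). Of all genes tested, 56.0% were lower, 26.0% lower in all 3 experiments and 20.4% higher in all 3. In edgeR 0 passed the adjusted threshold. At an unadjusted edgeR p below 0.05, 2 were higher, against 1221 of all 13728 genes. DESeq2 called *Pprc1* higher (0.56) and limma-voom 0. *Polrmt*, the mitochondrial RNA polymerase (1.23, edgeR adjusted p = 0.408), and *Ppargc1a*, a coactivator present at under 1 CPM on average (0.93, edgeR adjusted p = 0.885), had the highest values. Both rested on experiment 2, without which they were at 0.33 and -1.77. *Tfb1m* (0.75) was at 0.17 without experiment 2. *Ppargc1b* (-0.48) and *Tfam*, which packages mitochondrial DNA (-0.36, edgeR adjusted p = 0.558), had the lowest, and without experiment 2 they were at 0.86 and -0.04. *Nrf1* (0.10) and *Gabpa* (0.05), whose letters were sought above, were close to 0. Of 8 genes known to act on the COX4 or NDUFA4 isoforms or on oxygen sensing, 0 passed in edgeR, with 1 lower and 1 higher at an unadjusted p below 0.05, and DESeq2 called only *Epas1* and limma-voom 0. *Epas1*, the HIF2 alpha gene, was higher in 3 of 3 experiments (1.04, edgeR adjusted p = 0.148) and *Chchd2*, a factor known to bind the *Cox4i2* promoter, lower in 3 of 3 (-0.41, edgeR adjusted p = 0.204). *Hif1a* averaged 1320.1 CPM in LRCs and 1378 in non-LRCs (-0.15, edgeR adjusted p = 0.804). *Rbpj*, which also acts on *Cox4i2*, was at -0.14, and *Egln3* had the second-highest value (0.40). The genes of mitochondrial DNA were not analysed here.

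Other cell types could carry subunit mRNA, so their markers were read beside these values. The 8 skeletal muscle markers, of which 4 were tested and 0 passed in edgeR, DESeq2 or limma-voom or at an unadjusted edgeR p below 0.05, summed to 5.74 to 11.04 CPM in LRCs and 9.53 to 14.7 in non-LRCs, most of it *Tnnt3*, and *Ckm* was at 0 in all libraries but 1. The 8 mural cell markers, cells known to express *Cox4i2*, summed to 471 to 1433 CPM in LRCs and 475 to 1293 in non-LRCs. Nearly all of this was *Cspg4*, which chondrocytes express too, and the defining *Rgs5* was at most 0.187 CPM in any library. Of the 6 mural markers tested, 3 were lower in LRCs and 3 higher, and 0 passed in edgeR. *Acta2*, of smooth muscle and pericytes, was lower in all 3 experiments, with 1, 0 and 16 counts in LRCs and 198, 23 and 36 in non-LRCs. Its groups did not overlap in CPM, and DESeq2 called it lower but edgeR did not (edgeR adjusted p = 0.323). *Notch3*, a mural receptor, had 0, 0 and 23 counts in LRCs and 104, 29 and 18 in non-LRCs. *Myh11* was also lower (-1.16), while *Abcc9* (1.58), *Pdgfrb* (0.68) and *Cspg4* (0.15) were higher. Endothelial markers summed to at most 0.684 CPM and leukocyte markers to at most 4.14 CPM in any library. The 3 brown fat markers, mostly *Cidea*, summed to 5.54 to 14.7 CPM in LRCs and 4.93 to 6.76 in non-LRCs, with *Ucp1* at 0 in all libraries but 1. Erythroid markers summed to 0.805 to 3.47 CPM in LRCs and 4.51 to 9.32 in non-LRCs, with *Hba-a1* at 0 throughout. Most of this was *Beta-s* (*Hbb-bs*), lower in all 3 experiments without overlap of the groups (-1.81, edgeR adjusted p = 0.139). DESeq2 called it lower, and edgeR and limma-voom did not. The 5 osteoblast markers were mixed, at 121 to 250 CPM in LRCs and 75.02 to 363 in non-LRCs, and edgeR called 1 of them, *Col1a1*, higher. *Bglap* (-1.14) and *Bglap2* (-1.48), the osteocalcin genes, were called lower by DESeq2 and limma-voom and not by edgeR. The part of these cells in the results was not tested.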

How the data were processed

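RNA of 3 LRC and 3 non-LRC libraries was analysed. Per the methods, cDNA was amplified with SMART-Seq v4 from total RNA, made into Nextera XT libraries and read as 50-base single ends. Alignment to mm10 (GRCm38) was done by the authors with TopHat2 2.0.13 and Bowtie2 2.2.1, and HTSeq counted reads that mapped without ambiguity. The authors deposited these raw counts per gene, without normalization, and these were used. The deposited size-factor normalized and rlog tables were not used. The annotation and strand setting are not given in the sources used here, so counts of overlapping genes or of genes with close copies may be off.

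Counts were tested in R 4.3.3 with edgeR 4.0.16 (filterByExpr with a minimum count of 10 and total of 15, TMM, quasi-likelihood test, prior count 0.125) with the experiment as a block and Benjamini-Hochberg adjustment over 13728 genes. A call is an adjusted p below 0.05. log2 CPM used a prior count of 2, and isoform ratios 0.5 counts. The pairing comes from the paired model in the methods and the experiment numbers in the labels, and deviations from the group means correlated between libraries of the same experiment with Pearson r of 0.197, 0.288 and 0.336. The block takes out differences between experiments that both libraries of a pair share. The p-values therefore rest on how the LRC to non-LRC difference varied between pairs, and not on the spread between experiments. The test was also run on simulated counts with known changes. These held no differences between experiments, so that run cannot check the pairing, and its outcome is not reported here.

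Members and gene lists were chosen with earlier results of these data known. Named were all called members, the 3 lowest and 2 highest tested of each complex, all paralogs, complex II and the untested members. From the lists, the 2 largest in each direction were named, and a few others after their values were seen. Lengths, GC content and shared windows came from GENCODE vM21 on GRCm38, to which 20778 symbols matched as current, 1901 as older and 480 not at all. Length and GC content were known for 98.8% of the genes tested. Promoter windows are from RefSeq. Alternatives were limma 3.58.1 (voom), DESeq2 1.42.0, other scalings, filters, corrections and left-out experiments.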

Additional observations from a re-analysis of the deposited data

How the results depend on the processing

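Every alternative left the median of all subunits negative, between -0.87 and -0.51, and called 0 subunits higher. The number called lower, 4 with the experiment as a block, was 0 without the replicate block, 56 with DESeq2, 51 with limma-voom, 32 with at least 10 counts required in every library, 1 with the correction for GC content and length, and between 1 and 32 when an experiment was left out. Over all genes the count was 176 with the block, 1 without it, 1692 with DESeq2, 1361 with limma-voom, 751 with at least 10 counts in every library, and 35 to 782 with an experiment left out. The subunits past both the adjusted p and a 2-fold change were 3, and 0 without the block, 16 with DESeq2, 19 with limma-voom, 14 with at least 10 counts in every library, 1 with the correction and 1 to 19 with an experiment left out. The correction for GC content and length moved the medians to -0.51 for all subunits, -0.51 for complex I, -0.23 for III, -0.53 for IV and -0.60 for V. Keeping only subunits with at most 5% shared windows, an alternative chosen after seeing the data, gave -0.72 for all, -0.31 for complex III and -0.73 for V. No scaling moved the median of all genes by over 0.1. Counting *Ndufa4* and *Ndufa4l2* in complex IV changed no direction.

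Among the members named in the text, directions turned for these, which lay near 0 or at a few counts. With experiments left out in turn, *Atp5a1* ranged from -0.27 to 0.26, *Uqcrc1* from -0.43 to 0.21, *Cox8c* from -1.31 to 1.41 and *Cox6b2* from -0.44 to 0.046, and *Cox6b2* was at 0.021 with the GC and length correction. The ratio of *Cox8c* to *Cox8a* ranged from -0.55 to 1.89 and that of *Atp5g1* to *Atp5g2* from -0.078 to 0.47, and that of *Cox7b2* to *Cox7b* was 0.052 with a prior of 5 counts. For those left-out experiments the cause was not tested. With 3 pairs and 1 small LRC library, differences of the usual size here lie near what the test can call, and isoforms under a few CPM cannot be ranked.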
